A study of Mus musculus with 9 samples.

Results

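The genes described here are 48 components of the Wnt pathway of the mouse, chosen from a list of symbols that covers ligands and their secretion, receptors, the destruction complex, the TCF/LEF factors, feedback targets and secreted inhibitors. Each of the 48 had 1 row among the 53379 gene rows of the count table, and 39 of them were among the 17760 genes with enough reads to test. RNA came from GFP-positive cells of the embryonic cortex of C57BL/6 mice, sorted by FACS at E15.5, after in utero electroporation at E13.5 (embryonic days). All 3 groups carried short hairpin RNAs (shRNAs) and the GFP label and differed in the mix. The circSlc45a4 knockdown received 3 shRNAs against a circular RNA of the Slc45a4 gene, the Slc45a4 mRNA knockdown (mRNA knockdown below) received 2 shRNAs against the linear transcript, and scramble received 1 scrambled sequence. Each group held 3 libraries that the labels call biological replicates. The labels give neither the promoter that drives the hairpins nor the number of embryos per library, and every shRNA of a mix was given together, so that single hairpins cannot be compared.

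In canonical Wnt signalling a secreted, lipid-modified ligand bridges a Frizzled receptor and an Lrp co-receptor, Dishevelled is recruited, and the destruction complex of Apc, Axin, Gsk3b and Csnk1a1 stops marking β-catenin for degradation. β-catenin then enters the nucleus and joins TCF/LEF factors at target genes, several of which encode feedback inhibitors such as Axin2, Nkd1, Apcdd1 and Znrf3. In the developing cortex the pathway is known for its part in patterning from the cortical hem, in the proliferation of apical progenitors and in the change to neurogenesis.

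Total counts per library ran from 21073174 to 45469298. Slc45a4, the targeted gene, stood at 31.4, 33.6 and 33.96 CPM (counts scaled by library size) in scramble replicates 1, 2 and 3. With the circSlc45a4 shRNAs it had 25.4, 25.3 and 24.7 CPM, and with the mRNA shRNAs 13.25, 18.5 and 17.4 CPM. Its log2 fold change against scramble was -0.39 ± 0.12 (SE; adjusted p = 0.0245, edgeR's quasi-likelihood test) with the circSlc45a4 shRNAs. With the mRNA shRNAs it was -1.01 ± 0.12 (adjusted p = 0.000108). The gene was thus called lower in both knockdowns. PolyA selection does not retain a circular RNA, so the circle itself has no value here. The cells carried cortical markers: Neurod6 of projection neurons had group means of 1160 to 1177 CPM, and Pax6 of apical progenitors 100.1 to 175.7 CPM. Among 13 markers of cortical hem and choroid plexus, which are themselves Wnt sources, Rspo3 was the only tested gene, and Wnt3a and Lmx1b reached at most 2 counts in a library. The 8 markers of meningeal fibroblasts summed to 1.20 to 1.77 CPM in scramble, 0.827 to 0.939 CPM in the circSlc45a4 knockdown and 0.620 to 0.886 CPM in the mRNA knockdown. Foxd1 had 0 counts in all libraries. The part of meningeal cells in the values of genes with few reads was not tested. Xist, read from the inactive X chromosome, was at 0.0618 to 0.239 CPM in scramble and at 264.5 to 635 CPM in the circSlc45a4 knockdown. In mRNA knockdown replicates 1, 2 and 3 it was at 1550, 637 and 0.194 CPM. Ddx3y, on the Y chromosome, was at 28.28 to 41.55 CPM in scramble and at 20.01 to 37.14 CPM in the circSlc45a4 knockdown. In mRNA knockdown replicates 1, 2 and 3 it was at 0, 21.9 and 39.08 CPM. Both genes were thus clearly present in all circSlc45a4 knockdown libraries and in mRNA knockdown replicate 2. The mix of female and male embryos therefore differed between libraries and groups. Where adding the level of Xist as a covariate ended a call, the value with it is given. In bulk samples such as these, fewer cells of a type and less RNA per cell cannot be told apart.

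In scramble the pathway was led by its central effector. Ctnnb1, which encodes β-catenin, had the highest level per exonic length, 254 ± 3.997 RPKM (CPM per kilobase of merged exons; mean ± SD, n = 3). The ligand Wnt7b followed at 67.0 ± 7.69 RPKM, and no other ligand exceeded the 3.13 ± 0.420 RPKM of Wnt7a. Csnk1a1 and Sfrp1 came next, at 35.6 ± 1.24 and 35.2 ± 2.10 RPKM, and did not differ beyond their spread. Among the receptors Fzd2, Fzd1 and Fzd3 had 27.0 ± 3.43, 23.65 ± 0.614 and 17.85 ± 0.451 RPKM, where Fzd2 and Fzd1 overlapped within their SDs. TCF/LEF factors were low, from 1.83 ± 0.488 RPKM for Tcf7l1 and 1.295 ± 0.278 RPKM for Tcf7 to 0.3545 ± 0.0915 RPKM for Lef1 and 0.3255 ± 0.0423 RPKM for Tcf7l2. In CPM, 37 of the 48 genes had a scramble mean of at least 1, 22 of at least 10 and 10 of at least 100.

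**Figure D1:**
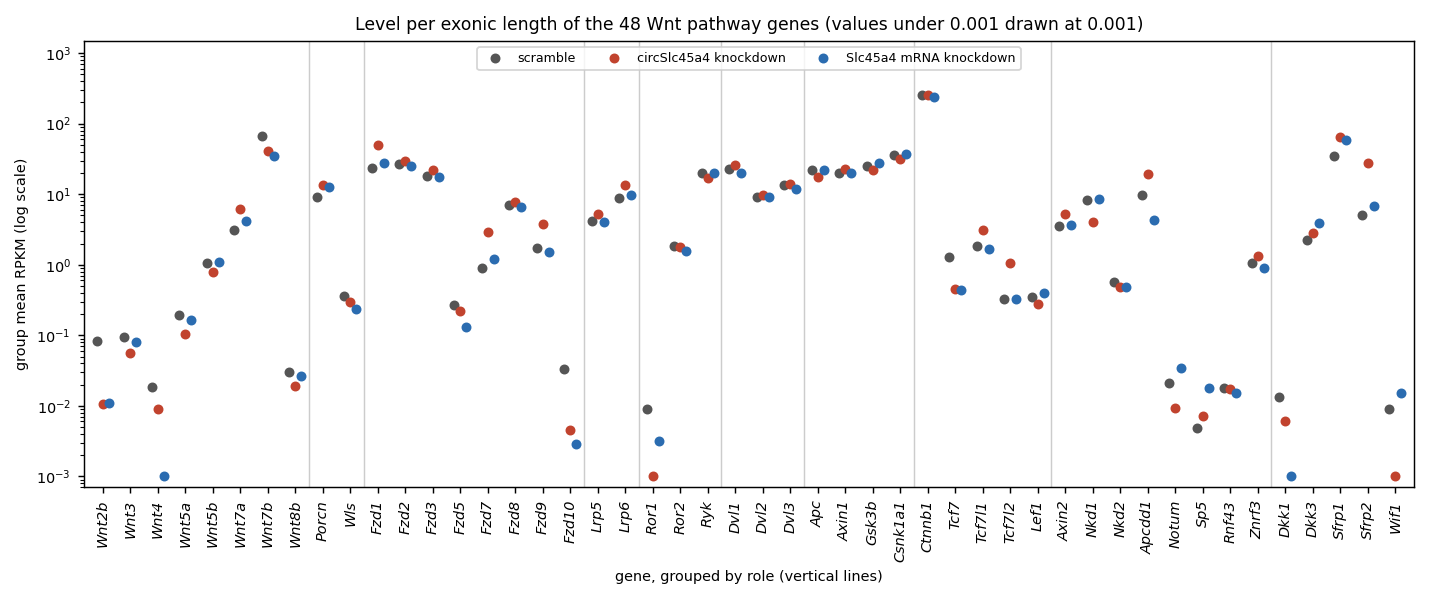
Group mean level per exonic length (RPKM, log scale) of the 48 Wnt pathway genes in scramble, circSlc45a4 knockdown and Slc45a4 mRNA knockdown (n = 3 libraries each), grouped by role, with values under 0.001 drawn at that level. Ctnnb1 and Wnt7b had the highest scramble levels, and the 9 genes that were not tested had the lowest.

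The 9 genes with too few reads to test were the ligands Wnt4 and Wnt8b, the receptors Fzd10 and Ror1, the feedback targets Notum, Sp5 and Rnf43 and the secreted inhibitors Dkk1 and Wif1. No library held more than 9 counts of any of them. At this depth a count of 0 allows up to 3 counts, or 0.0671 to 0.143 CPM per library (counting error only), so a change of these genes was not detectable.

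Targeting the circular RNA was set against scramble first. Of the 39 tested Wnt pathway genes 13 were higher and 5 lower (edgeR's quasi-likelihood test, Benjamini-Hochberg adjusted p under 0.05 over all 17760 genes), and 21 had no call. That is 46.2% of the genes, where 27.1% of all tested genes were called, 14.1% higher and 13.0% lower. The gene lists were chosen with earlier results of these data known, so their shares here and below do not test for an excess. With Xist as a covariate 8 of the 39 were called higher and 1 lower, and without scramble replicate 1 or circSlc45a4 knockdown replicate 2 the lower count was 3. The median log2 fold change of the 39 was 0.12, beside -0.01 over all genes. The circSlc45a4 knockdown libraries did not overlap those of scramble for 24 of the 39, against 43.9% of all genes. Genes called higher stood at most steps of the pathway, with 4 of 7 listed Frizzled receptors, the co-receptor Lrp6, 2 TCF factors, the feedback targets Axin2 and Apcdd1 and the inhibitors Sfrp1 and Sfrp2 among them.

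Targeting the linear transcript was set against the same scramble libraries. Here 3 genes were higher (Porcn, Dkk3 and Sfrp1) and 3 lower (Wnt7b, Tcf7 and Apcdd1), and 33 had no call. The share called was 15.4%, where 18.0% of all tested genes were called, 8.92% higher and 9.09% lower, so it lay near the background. The higher count was 1 without scramble replicate 2 or 3 or mRNA knockdown replicate 3. The median log2 fold change of the 39 was -0.03, beside 0.01 over all genes, and 12 did not overlap scramble, against 36.1% of all genes.

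The difference between the knockdowns was tested directly. In the circSlc45a4 knockdown 13 genes were higher than in the mRNA knockdown, 3 were lower and 23 had no call; 23 of the 39 did not overlap, against 40.1% of all genes. The lower count was 1 without circSlc45a4 knockdown replicate 1 or 2 or mRNA knockdown replicate 3, and 5 with upper-quartile factors or the filter on 1 CPM in 3 libraries. The share called was 41.0%, where 26.1% of all tested genes were called, 13.8% higher and 12.3% lower, with a median of 0.21 beside -0.02 over all genes. Altogether 22 of the 39 genes had a call in at least 1 of the 3 comparisons and 17 had none. The calls against scramble were shared by 5 genes: Porcn and Sfrp1 higher in both knockdowns, Wnt7b and Tcf7 lower in both, and Apcdd1 higher in the circSlc45a4 knockdown and lower in the mRNA knockdown.

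**Figure D2:**
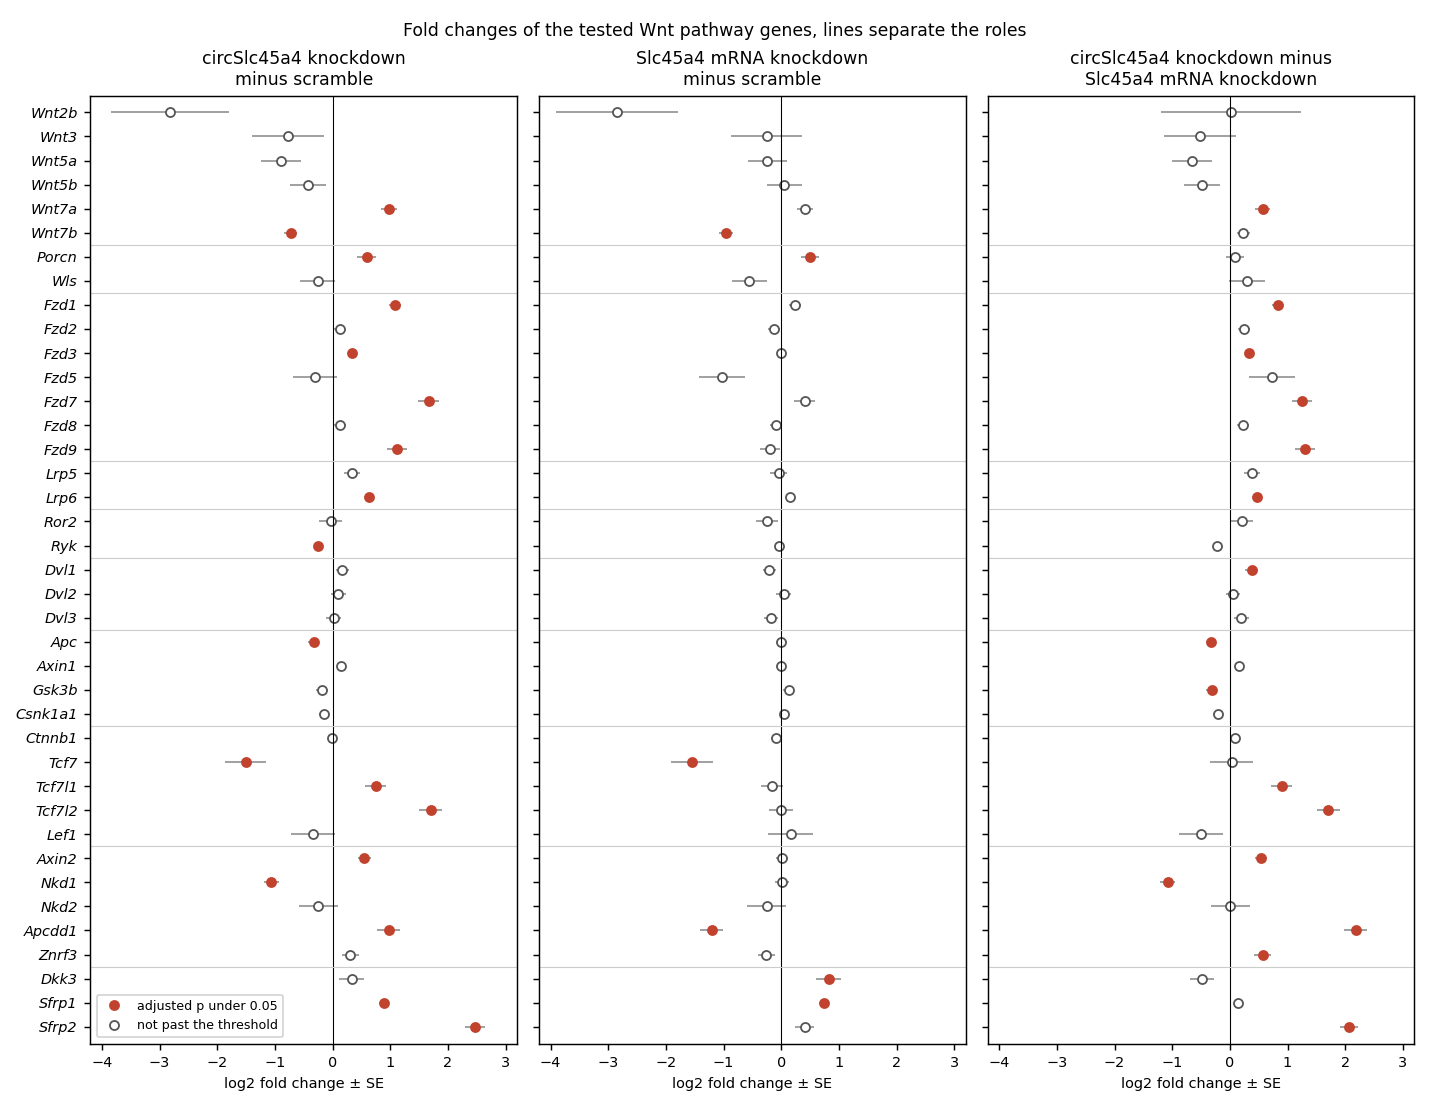
Log2 fold change ± SE of the 39 tested Wnt pathway genes (vertical, by role) in the 3 comparisons; filled points have an adjusted p under 0.05 in edgeR's quasi-likelihood test. The middle panel, for the Slc45a4 mRNA knockdown against scramble, holds 6 filled points, the left panel 18 and the right panel 16.

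Promoter sequence is shown for Axin2, the textbook target of the pathway, and for the Frizzled receptor, the TCF factor and the secreted inhibitor with the highest fold change of their kind in the circSlc45a4 knockdown. Each is the stretch of 250 bases before the RefSeq transcription start (RefSeq, build GRCm38.p6), 5′ to 3′, from chr11:108920099-108920348, plus strand for Axin2, chr1:59481897-59482146, plus strand for Fzd7, chr19:55741560-55741809, plus strand for Tcf7l2 and chr3:83766071-83766320, plus strand for Sfrp2. The start used for Fzd7 lies 277 bases before the start of its gene model in GENCODE. Capitals mark a match to the TCF/LEF core.
Axin2: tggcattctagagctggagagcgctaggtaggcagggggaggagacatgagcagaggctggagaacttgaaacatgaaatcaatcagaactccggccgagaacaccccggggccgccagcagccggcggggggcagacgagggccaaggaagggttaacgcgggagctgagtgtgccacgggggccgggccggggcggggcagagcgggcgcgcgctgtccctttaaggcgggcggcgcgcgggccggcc
Fzd7: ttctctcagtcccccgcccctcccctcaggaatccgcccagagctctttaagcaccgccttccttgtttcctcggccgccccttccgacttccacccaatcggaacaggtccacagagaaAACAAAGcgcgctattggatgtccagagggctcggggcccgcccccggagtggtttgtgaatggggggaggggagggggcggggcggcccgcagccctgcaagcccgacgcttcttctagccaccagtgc
Tcf7l2: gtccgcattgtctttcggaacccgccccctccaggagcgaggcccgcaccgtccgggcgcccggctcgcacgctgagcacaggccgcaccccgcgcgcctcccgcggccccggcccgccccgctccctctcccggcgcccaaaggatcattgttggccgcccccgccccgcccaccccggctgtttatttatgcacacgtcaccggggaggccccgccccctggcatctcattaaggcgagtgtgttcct
Sfrp2: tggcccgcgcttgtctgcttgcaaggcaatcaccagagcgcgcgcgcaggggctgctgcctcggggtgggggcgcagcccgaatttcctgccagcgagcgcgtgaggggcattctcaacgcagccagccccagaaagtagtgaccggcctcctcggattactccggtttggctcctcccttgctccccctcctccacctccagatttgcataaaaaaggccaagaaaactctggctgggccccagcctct
The core was searched on both strands in the forms CTTTGAT as well as CTTTGAA, and also CTTTGTT as well as CTTTGTA, 4 versions that cannot share a position on the same strand. Fzd7 held AACAAAG, the reverse complement of CTTTGTT, 130 bases before the start, and the windows shown of the other genes held none of these letters. Of the 48 genes 32 had a window in the RefSeq table, and 6 of these 32 (18.75%) had a match: Wnt5b, Fzd7, Tcf7l2 in another of its windows, Lef1, Sp5 and Dkk1. Over all genes with such a window, 4527 of 27025 (16.8%) had one. By window the counts were 6 of 41 (14.6%) against 4874 of 32851 (14.8%), so the Wnt pathway genes lay near the background. A match is a run of letters and no measure of binding.

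Among the ligands, Wnt7b fell in both knockdowns while Wnt7a rose in the circSlc45a4 knockdown. Wnt7b (ENSMUSG00000022382.14, chromosome 15, 85535437 to 85582473, minus strand), a ligand made by cortical neurons and progenitors, stood at 316.5, 370.1 and 297.5 CPM in scramble replicates 1, 2 and 3, 218, 199.5 and 176 CPM in the circSlc45a4 knockdown and 144, 192 and 170.1 CPM in the mRNA knockdown (values below keep this replicate order, and coordinates are in GRCm38). All 6 knockdown libraries lay under the lowest scramble library. The log2 fold change was -0.73 ± 0.12 (SE; adjusted p = 0.000563, edgeR) in the circSlc45a4 knockdown and -0.96 ± 0.12 (adjusted p = 0.00014) in the mRNA knockdown, and the difference between the 2 was 0.23 ± 0.12 (adjusted p = 0.167), with overlapping libraries.

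Wnt7a (ENSMUSG00000030093.7, chromosome 6, 91363981 to 91411363, minus strand), the closest relative of Wnt7b, stood at 8.51, 11.15 and 10.2 CPM in scramble, 19.3, 22 and 17.7 CPM in the circSlc45a4 knockdown and 13.7, 13.9 and 12.1 CPM in the mRNA knockdown. The 3 groups did not overlap and the mRNA knockdown lay between the other two. Wnt7a rose by 0.98 ± 0.13 (log2) in the circSlc45a4 knockdown (adjusted p = 0.000166, edgeR). In the mRNA knockdown its log2 fold change was 0.41 ± 0.14 (adjusted p = 0.0533), and the knockdowns differed by 0.57 ± 0.13 (adjusted p = 0.00657).

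The make-up of the ligand pool differed accordingly, with less of the abundant ligand and more of the scarcer one. The ratio of Wnt7b to Wnt7a, each per exonic length, was 24.1, 21.5 and 19 for scramble, 7.33, 5.87 and 6.45 for the circSlc45a4 knockdown and 6.79, 8.94 and 9.12 for the mRNA knockdown. Wnt7b made up 93.55 ± 0.312% of the summed RPKM of the 8 ligands in scramble, 84.9 ± 1.38% in the circSlc45a4 knockdown and 85.99 ± 1.68% in the mRNA knockdown (mean ± SD, n = 3). The summed level of 9 markers of newborn projection neurons was also lower: 5638 to 6699 CPM in scramble, 4927 to 5126 CPM in the circSlc45a4 knockdown and 4749 to 5232 CPM in the mRNA knockdown. Of the 9, 3 were called lower in each, where 13.0% and 9.09% of all genes were. Their log2 fold changes ran from -0.83 to 0.43 and from -0.98 to 0.175. In the same group order, 6 basal progenitor markers summed to 1418 to 1552, 1068 to 1307 and 1383 to 1439 CPM. Of these 6, 3 and 2 were called lower. The part of these cells in the change of Wnt7b was not tested.

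The other 4 tested ligands had no call. Wnt3 and Wnt5b overlapped scramble in both knockdowns. Wnt5a, a ligand of non-canonical signalling, had 1.52 ± 0.303 CPM in scramble and 0.810 ± 0.295 CPM in the circSlc45a4 knockdown (-0.90 ± 0.34 on the log2 scale, adjusted p = 0.0698, edgeR). Wnt2b had 6, 15 and 9 counts in scramble, 6, 0 and 0 after circSlc45a4 knockdown and 4, 0 and 1 after mRNA knockdown, too few for a call (adjusted p = 0.0569 and 0.08).

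Porcn (ENSMUSG00000031169.13, chromosome X, 8193848 to 8206525, minus strand), the acyltransferase that attaches the lipid to Wnt ligands, stood at 29.7, 25.2 and 26.8 CPM in scramble, 47.7, 36.9 and 37.95 CPM in the circSlc45a4 knockdown and 28.3, 45.2 and 42.15 CPM in the mRNA knockdown. Replicate 1 of the mRNA knockdown lay within the scramble range and the other 5 knockdown libraries above it. The log2 fold change was 0.59 ± 0.16 (adjusted p = 0.0146, edgeR) in the circSlc45a4 knockdown and 0.50 ± 0.16 (adjusted p = 0.0433) in the mRNA knockdown. Wls, which carries the ligands to the cell surface, had no call in any comparison.

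With Xist as a covariate the call of Wnt7b in the circSlc45a4 knockdown ended (log2 fold change -0.68, adjusted p = 0.0759, edgeR). Its adjusted p ran from 5.4e-13 to 0.0759 over 17 alternative settings. The call of Wnt7b in the mRNA knockdown did not end (9.52e-22 to 0.0159). The part of embryo sex in the values of Wnt7b and Porcn was not tested. The calls of the X-linked Porcn ended with Xist in both knockdowns (adjusted p = 0.108 and 0.148), in the circSlc45a4 knockdown also without scramble replicate 2 (0.54) or its own replicate 1 (0.46), and in the mRNA knockdown without scramble replicate 1 (0.57), 2 (0.45) or 3 (0.49), circSlc45a4 knockdown replicate 2 (0.49) or 3 (0.51), or mRNA knockdown replicate 2 (0.37) or 3 (0.44), with only the 6 libraries compared (0.49) or with a replicate block (0.50), with adjusted p ranges of 7.42e-06 to 0.108 and 3e-04 to 0.158. Wnt7a in the mRNA knockdown passed the threshold with DESeq2 (0.40, adjusted p = 0.0347) and with a filter on 1 CPM in 3 libraries (adjusted p = 0.0458; range 0.0347 to 0.496).

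Frizzled receptors bind the ligands at the cell surface. Of the 7 listed and tested, 4 rose in the circSlc45a4 knockdown against scramble. The same 4, Fzd1, Fzd3, Fzd7 and Fzd9, were higher than in the mRNA knockdown. Of all tested genes 14.1% and 13.8% were called higher in these comparisons, and the other 3 receptors had no call. In the mRNA knockdown 0 of the 7 listed receptors were called by edgeR's quasi-likelihood test, where 18.0% of all tested genes were, and 0 by DESeq2. By edgeR 3 of the 7 had an unadjusted p under 0.05. Fzd1 (ENSMUSG00000044674.6, chromosome 5, 4753839 to 4758035, minus strand) stood at 102, 97.6 and 98.0 CPM in scramble, 238, 218 and 171 CPM in the circSlc45a4 knockdown and 115, 120.5 and 117 CPM in the mRNA knockdown. The mRNA knockdown libraries lay just above scramble and well under the circSlc45a4 knockdown. Fzd1 rose by 1.08 ± 0.10 on the log2 scale (adjusted p = 9.74e-06, edgeR), and the knockdowns differed by 0.83 ± 0.10 (adjusted p = 9.95e-05). Its log2 fold change in the mRNA knockdown was 0.24 ± 0.10 (adjusted p = 0.118).

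Fzd7 (ENSMUSG00000041075.8, chromosome 1, 59482424 to 59486955, plus strand) had the highest fold change of the family in the circSlc45a4 knockdown. Per exonic length it stood at 0.770, 0.980 and 0.974 RPKM in scramble, 2.80, 3.42 and 2.48 RPKM in the circSlc45a4 knockdown and 1.18, 1.04 and 1.42 RPKM in the mRNA knockdown, and the lowest circSlc45a4 knockdown library was above every library of the other groups. The log2 fold change was 1.66 ± 0.18 against scramble (adjusted p = 2.5e-05, edgeR) and 1.26 ± 0.17 against the mRNA knockdown (adjusted p = 0.000226).

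Fzd9 (ENSMUSG00000049551.2, chromosome 5, 135248938 to 135251230, minus strand) separated the groups in the same way. Its levels were 4.11, 3.73 and 4.11 CPM in scramble, 8.675, 9.13 and 8.09 CPM in the circSlc45a4 knockdown and 2.79, 3.59 and 4.07 CPM in the mRNA knockdown, which overlapped scramble. Fzd9 rose by 1.12 ± 0.17 on the log2 scale against scramble (adjusted p = 0.000403, edgeR), with 1.31 ± 0.17 against the mRNA knockdown (adjusted p = 0.000158) and -0.19 ± 0.18 in the mRNA knockdown against scramble (adjusted p = 0.497).

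Fzd3 (ENSMUSG00000007989.7, chromosome 14, 65192449 to 65262463, minus strand), a receptor known for its part in axon growth and planar polarity, changed by less and with little spread. It stood at 234, 229.7 and 222 CPM in scramble, 283.5, 283.5 and 293 CPM in the circSlc45a4 knockdown and 233.5, 217.5 and 228 CPM in the mRNA knockdown. Its log2 fold change was 0.33 ± 0.07 against scramble (adjusted p = 0.00327, edgeR) and 0.34 ± 0.07 against the mRNA knockdown (adjusted p = 0.00289), and that of the mRNA knockdown against scramble was -0.01 ± 0.07.

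Fzd2, Fzd5 and Fzd8 had no call in any comparison. Fzd2 had 98.8 ± 12.6 CPM in scramble, 107 ± 1.84 CPM in the circSlc45a4 knockdown and 90.8 ± 10.03 CPM in the mRNA knockdown (mean ± SD, n = 3). Summed per exonic length, the 8 listed Frizzled receptors (without Fzd4 and Fzd6) reached 74.5, 81.3 and 79.5 RPKM in scramble, 122.4, 118.7 and 107.2 RPKM in the circSlc45a4 knockdown and 76.5, 81.3 and 82.1 RPKM in the mRNA knockdown. The circSlc45a4 knockdown libraries were thus the highest, while the other 2 groups overlapped. Fzd1 took 30.2 ± 2.167% of that sum in scramble and 42.7 ± 4.21% in the circSlc45a4 knockdown, and Fzd2 took 34.3 ± 2.90% and 25.3 ± 2.07%.

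Lrp6 (ENSMUSG00000030201.15, chromosome 6, 134446476 to 134566965, minus strand), the co-receptor that takes up the signal with Frizzled, stood at 117.5, 124 and 121 CPM in scramble, 194, 178 and 190.2 CPM in the circSlc45a4 knockdown and 127, 126 and 152 CPM in the mRNA knockdown. The 3 groups did not overlap, with replicate 3 of the mRNA knockdown closest to the circSlc45a4 knockdown. Lrp6 rose by 0.63 ± 0.09 on the log2 scale against scramble (adjusted p = 0.000133, edgeR) and was higher by 0.47 ± 0.08 than in the mRNA knockdown (adjusted p = 0.00128), where its own change was 0.16 ± 0.08 (adjusted p = 0.218). The related Lrp5 had 0.33 ± 0.14 in the circSlc45a4 knockdown (adjusted p = 0.101), short of a call.

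Ryk (ENSMUSG00000032547.12, chromosome 9, 102834917 to 102908305, plus strand), a receptor-like kinase that binds Wnt ligands in axon guidance, was the receptor called lower. It stood at 91.7, 86.1 and 96.4 CPM in scramble, 71.6, 80.1 and 78.9 CPM in the circSlc45a4 knockdown and 87.45, 95.0 and 85.7 CPM in the mRNA knockdown, which overlapped scramble. Ryk fell by 0.25 ± 0.08 on the log2 scale (adjusted p = 0.0335, edgeR) in the circSlc45a4 knockdown, with -0.22 ± 0.08 against the mRNA knockdown (adjusted p = 0.0606). Ror2, a receptor of non-canonical signalling, had no call.

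The calls of Fzd1, Fzd7, Fzd9 and Lrp6 in the circSlc45a4 knockdown passed under all 17 alternative settings; that of Fzd3 ended with Xist as a covariate (0.33, adjusted p = 0.127, range 1.63e-05 to 0.127), and that of Ryk with Xist (-0.31, adjusted p = 0.226), with no filter, or without scramble replicate 1 (-0.25), scramble replicate 3 (-0.21) or circSlc45a4 knockdown replicate 1 (-0.20), 2 (-0.28) or 3 (-0.27), with a range of 0.0137 to 0.226. Fzd1 in the mRNA knockdown passed the threshold with only the 6 libraries compared (0.23, adjusted p = 0.048) or without circSlc45a4 knockdown replicate 3 (0.25, adjusted p = 0.0346; range 0.0346 to 0.501). The summed level of 9 apical progenitor markers was 833.5 to 1091 CPM in scramble and 1386 to 1522 CPM in the circSlc45a4 knockdown. In the mRNA knockdown it was 913 to 1176 CPM, which overlapped scramble. Called higher were 6 of 9 in the circSlc45a4 knockdown and 3 of 9 in the mRNA knockdown, against 14.1% and 8.92% of all genes. The part of apical progenitors in the receptor values was not tested.

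Inside the cell, transcripts of the signal relay and the destruction complex changed little. Dishevelled proteins carry the signal from the receptors, and 0 of their 3 genes were called in either comparison with scramble by edgeR or DESeq2. None of the 3 had an unadjusted p under 0.05 in edgeR. Of all tested genes edgeR called 27.1% in the circSlc45a4 knockdown and 18.0% in the mRNA knockdown, so 0 of 3 genes is too few to differ from these shares. Dvl1 (ENSMUSG00000029071.16, chromosome 4, 155847402 to 155859303, plus strand) stood at 118, 117 and 108 CPM in scramble, 143, 128 and 115 CPM in the circSlc45a4 knockdown and 82.2, 113 and 102 CPM in the mRNA knockdown. The knockdowns lay on either side of scramble, and each overlapped it. Between the knockdowns Dvl1 differed by 0.38 ± 0.11 on the log2 scale (adjusted p = 0.0257, edgeR).

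Apc (ENSMUSG00000005871.14), the scaffold of the destruction complex, stood at 365.5, 350.4 and 349 CPM in scramble, 267, 260.4 and 320.4 CPM in the circSlc45a4 knockdown and 344, 338 and 385 CPM in the mRNA knockdown. Replicate 3 of the circSlc45a4 knockdown lay nearest to the other groups but under all of their libraries. Apc fell by 0.33 ± 0.09 on the log2 scale against scramble (adjusted p = 0.0158, edgeR) and differed by -0.33 ± 0.09 from the mRNA knockdown (adjusted p = 0.0161).

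Gsk3b (ENSMUSG00000022812.13, chromosome 16, 38089001 to 38246084, plus strand), the kinase that marks β-catenin, stood at 265, 244 and 227 CPM in scramble, 202, 199 and 247 CPM in the circSlc45a4 knockdown and 255, 263 and 288 CPM in the mRNA knockdown. It had no call against scramble, where both knockdowns overlapped the control range. Between the knockdowns the log2 difference was -0.32 ± 0.10 (adjusted p = 0.0278, edgeR), lower in the circSlc45a4 knockdown. Axin1, the limiting scaffold, and Csnk1a1, the priming kinase, had no call in any comparison.

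These differences were small and did not hold in every setting. Apc lost its call against scramble with Xist (-0.18, adjusted p = 0.531), without scramble replicate 1 (-0.31) or circSlc45a4 knockdown replicate 1 (-0.29) or 2 (-0.27), with a range of 0.00365 to 0.531, and its call between the knockdowns without circSlc45a4 knockdown replicate 1 (-0.28) or 2 (-0.27) or mRNA knockdown replicate 3 (-0.27), with a range of 0.00373 to 0.0856. Dvl1 lost its call without circSlc45a4 knockdown replicate 1 (0.30) or 2 (0.39) or mRNA knockdown replicate 1 (0.26) or 3 (0.40), with a range of 0.000946 to 0.117. Gsk3b lost its call with Xist (-0.28) or without circSlc45a4 knockdown replicate 1 (-0.26) or 2 (-0.25) or mRNA knockdown replicate 2 (-0.33) or 3 (-0.26), with a range of 0.00645 to 0.133. Without circSlc45a4 knockdown replicate 3 it passed against scramble (-0.29, adjusted p = 0.0391, range 0.0391 to 0.875).

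Ctnnb1 itself had no call in any comparison. It stood at 1297, 1328 and 1336 CPM in scramble, 1251, 1290 and 1387 CPM in the circSlc45a4 knockdown and 1132, 1246 and 1330 CPM in the mRNA knockdown, and the 3 groups overlapped. The log2 fold changes were -0.01 ± 0.08 and -0.10 ± 0.08 against scramble (adjusted p = 0.924 and 0.43, edgeR). β-catenin is regulated mainly through its stability, which transcript counts do not read.

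The TCF/LEF factors, which recruit β-catenin to DNA, changed in opposite directions. In the circSlc45a4 knockdown Tcf7l1 and Tcf7l2 rose and Tcf7 fell, and in the mRNA knockdown only Tcf7 of the 4 had a call. Of all tested genes 27.1% and 18.0% were called in these comparisons. Tcf7l2 (ENSMUSG00000024985.18, chromosome 19, 55741820 to 55933654, plus strand) stood at 2.44, 2.98 and 3.15 CPM in scramble, 9.30, 9.35 and 9.37 CPM in the circSlc45a4 knockdown and 3.40, 2.00 and 3.185 CPM in the mRNA knockdown. The circSlc45a4 knockdown libraries were close to each other and far above both other groups, which overlapped. Tcf7l2 rose by 1.70 ± 0.20 on the log2 scale (adjusted p = 5.95e-05, edgeR), with 1.71 ± 0.20 against the mRNA knockdown (adjusted p = 8.1e-05) and -0.01 ± 0.21 in the mRNA knockdown against scramble (adjusted p = 0.989).

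Tcf7l1 (ENSMUSG00000055799.13, chromosome 6, 72626378 to 72789254, minus strand), known mostly as a repressor of Wnt targets, stood at 5.355, 6.97 and 9.17 CPM in scramble, 12.1, 13.15 and 11 CPM in the circSlc45a4 knockdown and 7.45, 5.58 and 6.40 CPM in the mRNA knockdown. Scramble was spread widely, and its replicate 3 came nearest to the circSlc45a4 knockdown. The log2 fold change was 0.75 ± 0.19 against scramble (adjusted p = 0.00946, edgeR) and 0.90 ± 0.18 against the mRNA knockdown (adjusted p = 0.00328).

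Tcf7 (ENSMUSG00000000782.15, chromosome 11, 52252371 to 52283014, minus strand), a TCF factor that is itself a Wnt target in other tissues, was low in every library. It stood at 3.87, 2.56 and 3.77 CPM in scramble, 0.626, 1.48 and 1.475 CPM in the circSlc45a4 knockdown and 0.753, 1.48 and 1.25 CPM in the mRNA knockdown, so that all 6 knockdown libraries lay under scramble. Tcf7 fell by 1.51 ± 0.36 on the log2 scale in the circSlc45a4 knockdown (adjusted p = 0.00763, edgeR) and by 1.54 ± 0.36 in the mRNA knockdown (adjusted p = 0.0107). Lef1 had no call in any comparison.

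Within the summed RPKM of the 4 factors, Tcf7 held 42.8, 28.9 and 31.3% in scramble, 5.04, 10.6 and 12.2% after circSlc45a4 knockdown and 8.77, 22.9 and 17.5% in the mRNA knockdown. Tcf7l2 held 8.07, 10.1 and 7.82%, 22.4, 20.1 and 23.1%, and 11.9, 9.21 and 13.4% in the same order. Tcf7l1 held the most in all 6 knockdown libraries and also in scramble replicates 2 and 3 (52.7 and 50.9%). In scramble replicate 1 it held 39.6%, under Tcf7. With Xist as a covariate the circSlc45a4 knockdown calls of Tcf7 (-1.25, adjusted p = 0.296, range 5.55e-05 to 0.296) and Tcf7l1 (0.74, adjusted p = 0.21, range 0.000296 to 0.21) ended. The mRNA knockdown call of Tcf7 ended as well (-1.35, adjusted p = 0.26, range 6.39e-05 to 0.26). The part of embryo sex in these values was not tested. Both calls of Tcf7l2 passed in every setting.

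**Figure D3:**
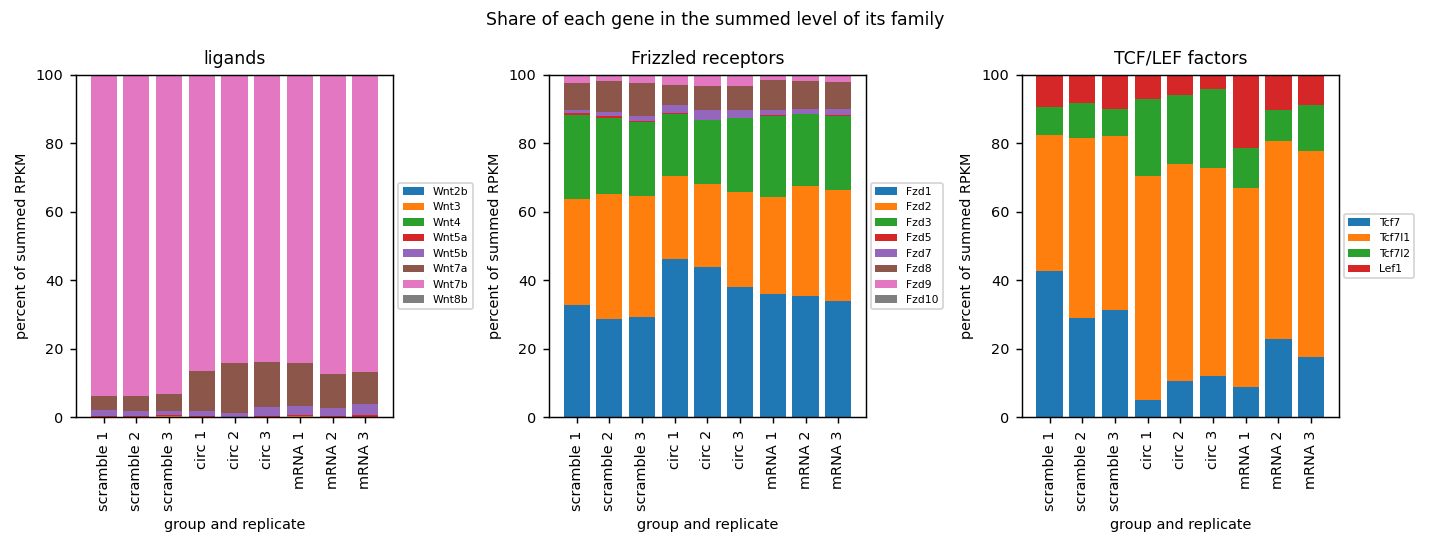
Share of each gene in the summed RPKM of the listed Wnt ligands, the listed Frizzled receptors and the TCF/LEF factors in every library (scramble, circ for circSlc45a4 knockdown, mRNA for Slc45a4 mRNA knockdown, replicates 1 to 3). Wnt7b takes less of the ligand bar in all knockdown libraries than in scramble, Fzd1 more of the receptor bar and Tcf7l2 more of the factor bar in the circSlc45a4 knockdown.

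Feedback targets, which the pathway switches on and which then damp it, did not move together. Of 5 tested members, Axin2 and Apcdd1 rose and Nkd1 fell in the circSlc45a4 knockdown, and Apcdd1 fell in the mRNA knockdown. Between the knockdowns Axin2, Apcdd1 and Znrf3 were higher and Nkd1 lower in the circSlc45a4 knockdown. The shares called were 60.0%, 20.0% and 80.0% of the 5, where 27.1%, 18.0% and 26.1% of all tested genes were called. That of the mRNA knockdown lay near the background. Axin2 (ENSMUSG00000000142.15, chromosome 11, 108920349 to 108950783, plus strand), the scaffold whose transcript serves most often as a readout of the pathway, stood at 17.1, 20.3 and 21.6 CPM in scramble, 31.1, 28.6 and 26.9 CPM in the circSlc45a4 knockdown and 20.3, 19.2 and 20.1 CPM in the mRNA knockdown. The circSlc45a4 knockdown lay above both other groups, which overlapped. Axin2 rose by 0.55 ± 0.11 on the log2 scale (adjusted p = 0.00237, edgeR), with 0.54 ± 0.11 against the mRNA knockdown (adjusted p = 0.00305) and 0.02 ± 0.11 in the mRNA knockdown against scramble (adjusted p = 0.946).

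Nkd1 (ENSMUSG00000031661.12, chromosome 8, 88521354 to 88594884, plus strand), a Dishevelled-binding inhibitor, moved the other way. It stood at 33.1, 40.8 and 40.2 CPM in scramble, 16.1, 17.9 and 20.7 CPM in the circSlc45a4 knockdown and 39.3, 42.3 and 34.0 CPM in the mRNA knockdown, with the circSlc45a4 knockdown under every other library. Nkd1 fell by 1.06 ± 0.13 on the log2 scale against scramble (adjusted p = 4.85e-05, edgeR) and differed by -1.08 ± 0.12 from the mRNA knockdown (adjusted p = 6.32e-05). The change in the mRNA knockdown was 0.02 ± 0.12 (adjusted p = 0.944).

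Apcdd1 (ENSMUSG00000071847.12), a membrane protein that blocks Wnt at the receptor, was the gene with opposite calls. It stood at 82.0, 129 and 171 CPM in scramble, 292, 238 and 222 CPM in the circSlc45a4 knockdown and 61.6, 54.7 and 49.3 CPM in the mRNA knockdown. No library overlapped between groups, although scramble spread widely. Apcdd1 rose by 0.97 ± 0.20 (log2) in the circSlc45a4 knockdown (adjusted p = 0.00261, edgeR) and fell by 1.21 ± 0.20 in the mRNA knockdown (adjusted p = 0.00114), a difference of 2.18 ± 0.20, or 4.54-fold (adjusted p = 1.32e-05). The summed level of 7 Cajal-Retzius cell markers was 50.2 to 100.9 CPM in scramble and 117.1 to 363 CPM in the circSlc45a4 knockdown. In the mRNA knockdown it was 25.5 to 55.1 CPM, which overlapped scramble. Among their 6 tested genes 2 rose and 1 fell in the circSlc45a4 knockdown, where 14.1% and 13.0% of all genes did. In the mRNA knockdown 0 of the 6 were called. The part of these cells in the Apcdd1 values was not tested.

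Znrf3 (ENSMUSG00000041961.14, chromosome 11, 5276324 to 5444847, minus strand), a ubiquitin ligase that removes Frizzled receptors, stood at 7.84, 8.62 and 8.645 CPM in scramble, 10.7, 9.70 and 10.7 CPM in the circSlc45a4 knockdown and 7.81, 5.66 and 7.505 CPM in the mRNA knockdown. The knockdowns lay on opposite sides of scramble without overlap, and neither difference from scramble was called. Between the knockdowns the difference was 0.57 ± 0.15 (adjusted p = 0.0121, edgeR). Nkd2, the second Naked gene, had no call. With Xist as a covariate the circSlc45a4 knockdown calls of Axin2 (0.58, adjusted p = 0.0976, range 3.28e-05 to 0.0976) and Apcdd1 (0.79, adjusted p = 0.201, range 3.31e-22 to 0.201) ended; those of Nkd1, and those of the 4 genes between the knockdowns, passed in every setting.

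Secreted inhibitors, which bind Wnt ligands or their receptors outside the cell, included the largest called fold change of the 39 genes. Sfrp2 (ENSMUSG00000027996.13, chromosome 3, 83766321 to 83774316, plus strand), a soluble Frizzled-related protein, stood at 10.4, 10.9 and 11.4 CPM in scramble, 74.8, 63.1 and 43.3 CPM in the circSlc45a4 knockdown and 13.9, 13.8 and 15.65 CPM in the mRNA knockdown. The circSlc45a4 knockdown libraries were far above the others, with replicate 3 the lowest of them, and the mRNA knockdown lay just above scramble. Sfrp2 rose by 2.47 ± 0.17 on the log2 scale, or 5.54-fold (adjusted p = 8.53e-07, edgeR), with 2.07 ± 0.16 against the mRNA knockdown (adjusted p = 4.02e-06) and 0.40 ± 0.17 in the mRNA knockdown against scramble (adjusted p = 0.113).

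Sfrp1 (ENSMUSG00000031548.7, chromosome 8, 23411502 to 23449632, plus strand), its close relative, rose in both knockdowns. It stood at 156, 162 and 144 CPM in scramble, 263, 283 and 307 CPM in the circSlc45a4 knockdown and 263, 239 and 268 CPM in the mRNA knockdown, and all 6 knockdown libraries exceeded scramble. Its log2 fold changes were 0.89 ± 0.08 (adjusted p = 9.21e-06, edgeR) in the circSlc45a4 knockdown and 0.74 ± 0.08 (adjusted p = 8.01e-05) in the mRNA knockdown, and the difference of 0.15 ± 0.08 was not called (adjusted p = 0.214). Summed per exonic length, both inhibitors reached 40.2 ± 1.95 RPKM in scramble, 93.1 ± 2.48 RPKM in the circSlc45a4 knockdown and 65.4 ± 3.97 RPKM in the mRNA knockdown (mean ± SD, n = 3).

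Dkk3 (ENSMUSG00000030772.6, chromosome 7, 112116017 to 112159057, minus strand), a divergent member of the Dickkopf family, stood at 8.94, 7.875 and 5.56 CPM in scramble, 8.36, 9.95 and 9.68 CPM in the circSlc45a4 knockdown and 12.5, 9.66 and 17.2 CPM in the mRNA knockdown. The mRNA knockdown was above scramble and overlapped the circSlc45a4 knockdown. Dkk3 rose by 0.82 ± 0.21 (log2) in the mRNA knockdown (adjusted p = 0.0176, edgeR), with 0.33 ± 0.21 in the circSlc45a4 knockdown (adjusted p = 0.28).

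The circSlc45a4 knockdown calls of Sfrp1 and Sfrp2 and the mRNA knockdown call of Sfrp1 passed in every setting, and Sfrp2 in the mRNA knockdown passed with no filter (0.40, adjusted p = 0.0177) or without circSlc45a4 knockdown replicate 3 (0.41, adjusted p = 0.0264; range 0.0177 to 0.29). The call of Dkk3 ended without scramble replicate 2 (0.87, adjusted p = 0.0526) or 3 (0.65, adjusted p = 0.0682) or mRNA knockdown replicate 3 (0.58, adjusted p = 0.08; range 3.08e-05 to 0.08), and its difference between the knockdowns (-0.49 ± 0.21) was called with no filter or without mRNA knockdown replicate 2 (-0.67, adjusted p = 0.0337; range 0.0206 to 0.431).

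**Figure D4:**
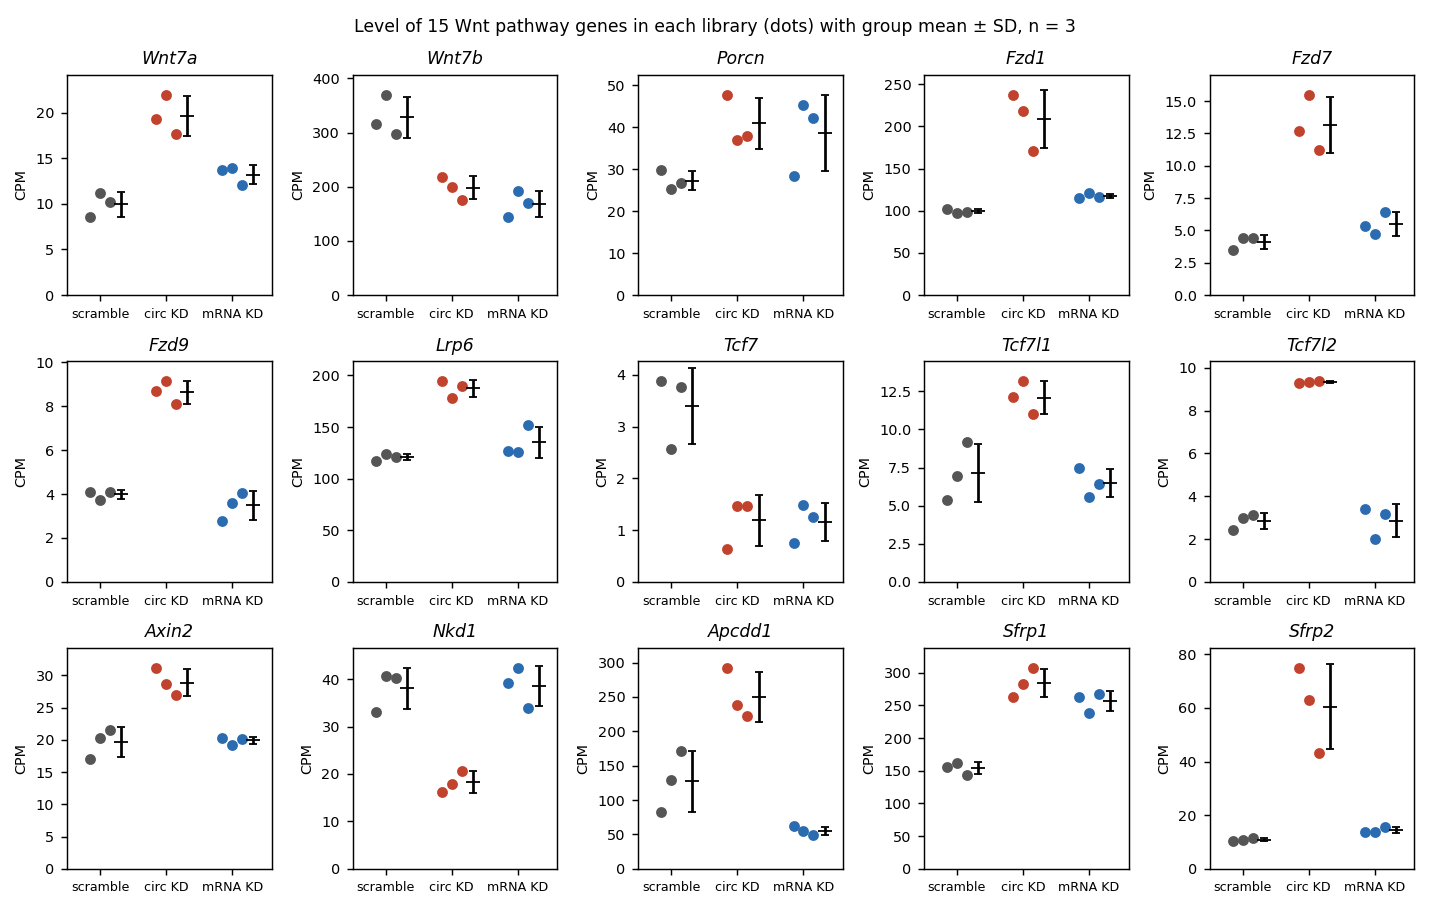
Level (CPM) of 15 Wnt pathway genes in each library (points), with the group mean ± SD (n = 3), in scramble, circSlc45a4 knockdown (circ KD) and Slc45a4 mRNA knockdown (mRNA KD). Wnt7b and Tcf7 lie lower and Sfrp1 higher in all 6 knockdown libraries, Fzd1, Fzd7, Fzd9, Tcf7l2, Axin2 and Sfrp2 are highest in the circSlc45a4 knockdown, and Nkd1 is lowest there.

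The 17 genes without a call in any comparison spanned log2 fold changes of -2.82 to 0.33 in the circSlc45a4 knockdown, -2.85 to 0.16 in the mRNA knockdown and -0.66 to 0.73 between the knockdowns. They were the ligands Wnt2b, Wnt3, Wnt5a and Wnt5b, Wls, the receptors Fzd2, Fzd5, Fzd8, Lrp5 and Ror2, and Dvl2, Dvl3, Axin1, Csnk1a1, Ctnnb1, Lef1 and Nkd2. Some genes share exonic bases with a gene on the opposite strand, and the sources used here do not give the strand setting of the counts. The shared part of the exonic length was 16.1% for Sfrp2 (with Gm26771), 14.6% for Ctnnb1 (with Ulk4) and 18.3% for Dvl2 (with Acadvl), and 6.61% for Wnt7b (with AU022754). It was 17.8% for Fzd5 (with Gm38058) and 13.75% for Lef1 (with Gm43352). The untested Notum shared 29.4% with Notumos and 8.72% with Myadml2os. For Wnt5a, Tcf7l1, Axin2 and Dvl1 the part was 4.58%, 4.56%, 3.8% and 0.72%. Reads from there cannot be assigned to a strand.

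Beyond the 48 genes, the wider pathway was counted over 84 further symbols, of which 61 were tested. In the circSlc45a4 knockdown 18 rose and 3 fell (34.4%, against 27.1% of all genes). Examples were Csnk1g1 and Csnk1d, casein kinases that act on Lrp6 and Dishevelled, with log2 fold changes of 0.82 ± 0.08 and 0.80 ± 0.09, the co-repressor Tle4 with 0.79 ± 0.12, and Gpc4, a glypican that holds ligands at the cell surface, with 0.74 ± 0.09. Dixdc1, which binds Dishevelled, rose by 1.07 ± 0.15, Amer2, which binds Apc, by 0.60 ± 0.08, Fbxw11, the ubiquitin ligase subunit that takes up marked β-catenin, by 0.57 ± 0.09, and the planar polarity gene Prickle1 by 1.89 ± 0.24.

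In the mRNA knockdown 9 of the 61 rose and 5 fell (23.0%, against 18.0% of all genes). Draxin, a guidance protein that also antagonises Wnt, rose by 0.79 ± 0.11, and Rspo3, a secreted agonist that protects Frizzled receptors, by 0.88 ± 0.18. Gpc4 (0.49 ± 0.09), Csnk1d (0.46 ± 0.09), Fbxw11 (0.41 ± 0.09), Amer2 (0.35 ± 0.08) and Csnk1g1 (0.34 ± 0.08) were higher here too, against the same scramble libraries, and the co-repressor Tle1 fell by 0.33 ± 0.07.

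Between the knockdowns 23 of the 61 were higher in the circSlc45a4 knockdown and 6 lower (47.5%, against 26.1% of all genes). Tle4 differed by 1.03 ± 0.12, Ccdc88c, a Dishevelled-binding protein, by 0.96 ± 0.11, Amer1 by 0.91 ± 0.11 and Dixdc1 by 1.01 ± 0.15. Prickle1 differed by 1.26 ± 0.23 and Csnk1g1 by 0.49 ± 0.08, while the secreted inhibitor Igfbp4 was lower in the circSlc45a4 knockdown (-0.56 ± 0.11).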

How the data were processed

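Bulk polyA RNA-seq was analysed in 9 libraries, 3 for each of 3 shRNA mixes. The authors deposited whole read counts per gene without normalization, per the file headers and values; per the submitters' processing notes the tools were bcl2fastq 2.17.1.14, STAR 2.4.2a and DESeq2 with build mm10, and for the counting program, annotation release and strand setting: not given in the sources used here. Symbols came from GENCODE release M21 (GRCm38), for 53274 of 53379 IDs, and all 48 members had 1 row. Every sample column was used (0 left out). In edgeR 4.0.16, filterByExpr (by group, minimum count 10) left 17760 genes; libraries were TMM-scaled and fitted with 1 term per group over all 9 libraries (6 residual degrees of freedom, common biological coefficient of variation 13.9%). Each pair of groups was tested by the quasi-likelihood F test, with Benjamini-Hochberg adjustment over all genes and a threshold of 0.05. SE is the log2 fold change over the square root of F. CPM uses TMM-scaled totals, and RPKM divides it by the merged exon length. The test was also run on counts simulated with the spread of the same fit (R 4.3.3). Such counts hold no differences in sex or cell mix, so they cannot check the test against these.

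The members and lists were chosen with earlier results of these data known. Values in every library are given for members called in any comparison, the others by range, and of the wider pathway at most 8 genes per comparison with the smallest p. Alternatives were RLE and upper-quartile factors, no filter, 1 CPM in 3 libraries, DESeq2 1.42.0, only the 6 libraries compared, a replicate block, Xist as a covariate, and leaving out each library. The labels name no batch. Deviations of same-numbered libraries from their group means correlated with r from -0.141 to 0.115 over 9 pairs, 1 of them over 0.1, so libraries were not paired.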

Additional observations from a re-analysis of the deposited data

Results flagged for a closer look

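Apcdd1 stood out because its effect differed between the knockdowns: it was higher than scramble in 3 of 3 circSlc45a4 knockdown libraries and lower in 3 of 3 mRNA knockdown libraries, and the direct test of the difference gave a log2 value of 2.18 ± 0.20 (SE; adjusted p = 1.32e-05, edgeR's quasi-likelihood test). Its mean was 127.2 ± 44.4 CPM in scramble, 250.4 ± 36.7 CPM in the circSlc45a4 knockdown and 55.2 ± 6.16 CPM in the mRNA knockdown (SD, n = 3). Over 17 alternative settings the difference ran from 2.07 to 2.27 on the log2 scale.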

How the results depend on the processing

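Of 40 called values of Wnt pathway genes, 25 kept their call under all 17 alternative settings, 15 lost it in at least 1 and 0 changed sign. With Xist as a covariate the counts in the circSlc45a4 knockdown fell to 811 genes higher and 430 lower, with 8 and 1 Wnt pathway genes, and in the mRNA knockdown to 465 and 293 genes; Xist was near 0 in all scramble libraries, so it overlaps with the group. Leaving out each library gave 1858 to 2948 genes higher and 1528 to 2600 lower in the circSlc45a4 knockdown (lowest without scramble replicate 2 for the latter), with 12 to 14 and 3 to 5 Wnt pathway genes, 864 to 1508 and 896 to 1596 genes in the mRNA knockdown (both lowest without scramble replicate 2), with 1 to 4 and 3 to 4 Wnt pathway genes, and 1708 to 2426 and 1351 to 2184 genes between the knockdowns (the latter lowest without circSlc45a4 knockdown replicate 1), with 12 to 14 and 1 to 4 Wnt pathway genes. Wnt pathway genes lower between the knockdowns numbered 5 with upper-quartile factors and 5 with the filter on 1 CPM in 3 libraries. Upper-quartile factors moved the share of calls that were higher from 52.1% to 42.3% in the circSlc45a4 knockdown and from 52.8% to 42.1% between the knockdowns. The replicate block gave 13 and 5 Wnt pathway genes in the circSlc45a4 knockdown, 2 and 3 in the mRNA knockdown and 13 and 3 between the knockdowns; not every same-number pair had an r over 0.1, so the numbers were not taken as pairing. Of 9 libraries 1 correlated best with its own number in both other groups; between the knockdowns alone 6 of 6 did (r from 0.081 to 0.115), a hint from the data and not from the design. Values that changed sign were all without a call. In the mRNA knockdown against scramble these were Apc with RLE factors (-0.005), DESeq2 (-0.005), the 6 libraries compared (-0.009), the replicate block (-0.001) and leaving out a library (-0.057 to 0.039), Fzd9 (0.063), Tcf7l2 (0.133) and Nkd1 (-0.141) with Xist, and, leaving out a library, Fzd3 (-0.032 to 0.015), Ryk (-0.079 to 0.009), Tcf7l1 (-0.319 to 0.065), Tcf7l2 (-0.147 to 0.196), Axin2 (-0.074 to 0.088) and Nkd1 (-0.072 to 0.1). Between the knockdowns they were Tcf7 with upper-quartile factors (-0.020) and, leaving out a library, Tcf7 (-0.200 to 0.351) and Porcn (-0.095 to 0.219). The cause of these shifts was not tested. Depth limits the 9 untested genes and Wnt2b.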

Other observations

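The ratio of Axin2 to Nkd1, 2 feedback targets, separated the circSlc45a4 knockdown from the other groups. Per exonic length it was 0.426, 0.412 and 0.444 for scramble, 1.6, 1.32 and 1.08 for the circSlc45a4 knockdown and 0.429, 0.376 and 0.49 for the mRNA knockdown. The ratio of Sfrp1 to Sfrp2 was 7.39, 7.32 and 6.2 for scramble, 1.73, 2.21 and 3.49 for the circSlc45a4 knockdown and 9.34, 8.52 and 8.44 for the mRNA knockdown. Both ratios were chosen after their values were seen.

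Among 10 tested genes of planar polarity, the branch that orients cells without β-catenin, 4 rose in the circSlc45a4 knockdown and 6 were higher there than in the mRNA knockdown, where 14.1% and 13.8% of all tested genes were called higher. Celsr2, a cadherin of this branch, had means of 458 CPM in scramble, 622 CPM in the circSlc45a4 knockdown and 378 CPM in the mRNA knockdown, and its log2 difference between the knockdowns was 0.72 ± 0.11 (SE; adjusted p = 0.000536, edgeR).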
